A study of Mus musculus with 37 samples.

Results

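Mature mouse eggs arrested in metaphase of the second meiotic division (MII eggs) were compared between Bap1 knockout females and controls. The comparison takes in every library labelled MII, 5 of the 37 libraries of the series. The 2 control libraries came from eggs of Bap1 flox/flox genotype. The 3 knockout libraries came from eggs labelled Gdf9-iCre, Bap1 flox/flox, in which the iCre recombinase is driven by the promoter of the oocyte gene Gdf9. Both groups therefore carried the floxed allele and differed in iCre. No treatment, age, number of eggs per library or separate animal is given for these libraries, so the p-values below measure the spread between these samples, which may be technical. Total RNA was made into stranded libraries with the SMART-Seq Stranded kit. For 2 comparisons the neighbouring stages were drawn in, namely fully grown oocytes of the same genotypes and late 1-cell embryos obtained by fertilising such eggs with wild-type sperm, each with 2 control and 3 knockout libraries.

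BAP1 is a deubiquitinase. Together with an ASXL protein it forms the Polycomb repressive deubiquitinase complex, which removes the ubiquitin that Polycomb repressive complex 1 (PRC1) places on histone H2A at lysine 119. The series asks how loss of BAP1 alters the transcriptome and chromatin of oocytes and embryos. An MII egg makes almost no new RNA. Its transcripts were stored while the oocyte grew, and meiotic maturation then removes part of them, so a difference in level between eggs carries both the earlier transcription and the later loss of an RNA.

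The start regions of the genes that moved most are shown because the CG dinucleotides there were counted for all genes, as given with the values. Each line holds the 250 bases before the RefSeq transcription start, read 5′ to 3′ on the strand of the gene, from the GRCm38.p6 assembly. Capitals mark each CG, the dinucleotide that can carry DNA methylation. Shown are the 3 genes that fell most and had a promoter entry, then the 3 that rose most, leaving out predicted and clone-named genes. The windows of the fallen genes lie at chr11:34046678-34046927 (plus strand) for Lcp2, chr17:58991376-58991625 (minus strand) for Pdzph1 and chr6:34353896-34354145 (plus strand) for Akr1b8. Those of the risen genes lie at chr17:45433708-45433957 (minus strand) for Cdc5l, chr3:95882229-95882478 (minus strand) for Ciart and chr1:74854779-74855028 (plus strand) for Cdk5r2.
Lcp2: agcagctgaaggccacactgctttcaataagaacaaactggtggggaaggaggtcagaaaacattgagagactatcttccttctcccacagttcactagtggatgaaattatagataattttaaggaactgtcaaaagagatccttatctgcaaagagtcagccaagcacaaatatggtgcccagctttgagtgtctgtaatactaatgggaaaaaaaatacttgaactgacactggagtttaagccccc
Pdzph1: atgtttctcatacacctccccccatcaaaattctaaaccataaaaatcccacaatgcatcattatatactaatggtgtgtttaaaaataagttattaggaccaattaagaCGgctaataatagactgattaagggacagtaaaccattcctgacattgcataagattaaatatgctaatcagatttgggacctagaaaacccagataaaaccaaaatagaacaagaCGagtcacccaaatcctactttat
Akr1b8: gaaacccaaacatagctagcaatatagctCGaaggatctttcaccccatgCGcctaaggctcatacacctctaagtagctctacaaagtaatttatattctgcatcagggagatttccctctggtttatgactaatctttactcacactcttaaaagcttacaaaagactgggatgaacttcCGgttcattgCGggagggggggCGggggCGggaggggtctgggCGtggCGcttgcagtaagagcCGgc
Cdc5l: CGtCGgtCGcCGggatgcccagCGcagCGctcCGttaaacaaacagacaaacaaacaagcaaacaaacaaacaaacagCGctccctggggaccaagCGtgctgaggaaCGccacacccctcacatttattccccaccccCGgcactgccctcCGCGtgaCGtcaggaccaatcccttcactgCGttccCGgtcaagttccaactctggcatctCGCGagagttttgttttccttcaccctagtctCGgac
Ciart: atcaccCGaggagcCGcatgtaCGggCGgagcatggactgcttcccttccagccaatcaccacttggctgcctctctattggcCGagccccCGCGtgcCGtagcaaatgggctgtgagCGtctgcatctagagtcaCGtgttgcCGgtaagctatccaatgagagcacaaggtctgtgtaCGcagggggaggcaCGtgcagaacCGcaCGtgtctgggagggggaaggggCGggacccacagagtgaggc
Cdk5r2: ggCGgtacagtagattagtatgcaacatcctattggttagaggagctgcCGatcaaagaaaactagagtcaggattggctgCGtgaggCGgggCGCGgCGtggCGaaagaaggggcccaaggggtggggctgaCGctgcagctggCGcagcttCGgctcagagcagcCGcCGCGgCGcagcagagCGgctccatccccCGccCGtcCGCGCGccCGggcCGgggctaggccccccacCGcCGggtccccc

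In these 250 bases Lcp2 had 0 CG, Pdzph1 had 2 and Akr1b8 had 9. Cdc5l had 19, Ciart 16 and Cdk5r2 25. These 6 genes were chosen for their change and say nothing of the others.

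The target gene fell in every knockout library. Bap1 (mm10, chr14:31251450-31259944, plus strand, protein-coding) had 29.9 and 28.5 FPKM in the control libraries and 4.92, 5.13 and 4.15 FPKM in the knockout libraries. FPKM counts sequenced fragments relative to the length of the transcript and to the size of the library, so levels of different genes can be compared. The groups did not overlap, and the knockout mean of 4.73 ± 0.517 FPKM (SD, n = 3) was 6.17-fold below the control mean of 29.2 ± 0.962 FPKM (SD, n = 2). On the scale of log2(FPKM + 1) used for all tests the difference was -2.40 ± 0.102 (SE), with an adjusted p of 0.000144 (limma, Benjamini-Hochberg over all genes tested). The floxed exons are not named in the labels, and reads from the rest of the gene count towards its FPKM, so the remaining level does not measure intact transcripts.

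The eggs of both groups carried the RNAs that define an oocyte. The summed level of 10 oocyte markers, among them Zp3, Gdf9 and Mos, was 3636 to 3719 FPKM in controls and 3426 to 3667 FPKM in knockouts. Of 25 cumulus and granulosa markers, 12 were listed at 0 in all 5 libraries and 23 stayed under 1 FPKM. The exceptions were Nr5a2 and the aromatase gene Cyp19a1, and the list summed to 23.8 and 24.5 FPKM in controls against 16.7 to 17.2 FPKM in knockouts. Nr5a2 had 19.4 and 17.2 FPKM against 14.4 to 15.3 FPKM, and Cyp19a1 had 4.20 and 5.62 FPKM against 1.34 to 1.62 FPKM. The part of granulosa RNA in the results below was not tested. None of 12 blood markers reached 1 FPKM. Of 12 theca, stroma and vessel markers only Pecam1 and Tek reached it, and of 12 sperm markers Ldhc, Odf2 and Prm2. FPKM sums per library ranged from 306912 to 316060, and the number of reads behind them is unknown. Genes at 1 FPKM or more numbered 11050 and 11181 in controls and 10434 to 10726 in knockouts. Libraries of one group correlated at Pearson's r of 0.987 to 0.993 across 11357 genes, and libraries of different groups at 0.967 to 0.974, which describes genes that are not independent. FPKM is relative to the library total, so a smaller amount of RNA per egg cannot be told apart from a change in composition.

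More genes fell than rose, and the falls were larger. Of 11357 genes tested, 890 were lower in knockout eggs (7.84%) and 474 were higher (4.17%) at an adjusted p under 0.05. Every called gene had knockout libraries all on one side of the controls, which held for 47.0% of all tested genes. The median difference of the fallen genes was -0.84, and 332 of them fell by at least 1 on the log2 scale, 38 of them by at least 2. The median difference of the risen genes was 0.46, with 19 at 1 or more and 2 at 2 or more. In 313 of the fallen genes the knockout mean lay under 1 FPKM, so that RNAs present in control eggs were near the lower end of the scale in knockout eggs. The count rested on having both control libraries. With either control left out, the remaining one was assumed to vary like the knockouts, and 179 genes (without control 1) or 157 genes (without control 2) were called. When only genes averaging 5 FPKM or more were tested, 275 were higher and 280 lower. When library medians were set equal, 716 were higher and 788 lower.

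**Figure D1:**
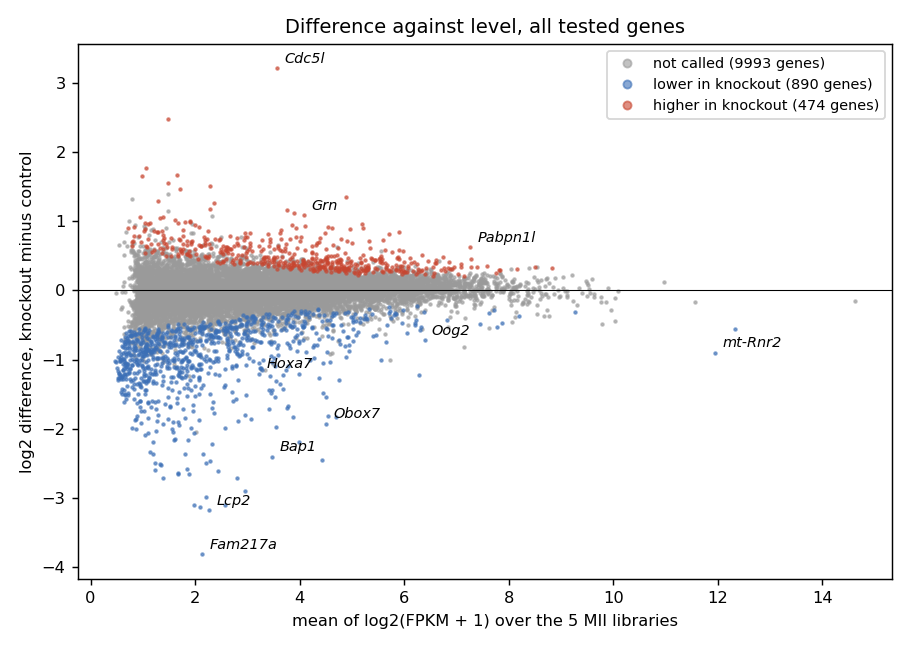
Each point is 1 of 11357 tested genes, with its mean log2(FPKM + 1) over the 5 MII libraries on the x axis and its log2 difference, knockout minus control, on the y axis. Blue points are the 890 genes called lower, red points the 474 called higher and grey points the rest, and the fallen genes reach larger differences and lie further towards low levels.

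The fallen genes sat lower on the expression scale. Their median control level was 4.92 FPKM, against 13.3 FPKM for the risen genes. Among genes with a mean over the 5 libraries under 1 FPKM, 26.1% were called lower and 1.42% higher. Between 20 and 100 FPKM the shares turned round, with 3.05% lower and 6.77% higher. A gene at 1 FPKM or more in both controls entered the test whatever its level in knockouts, so the lowest classes hold genes that passed the filter through the controls alone, and their shares are a description.

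The largest falls came from a handful of RNAs that were plainly present in control eggs and almost missing from knockout eggs. Fam217a (chr13:34909960-34924310, minus strand), a protein-coding gene of unassigned role, had 19.8 and 21.2 FPKM in controls and 0.644, 0.37 and 0.585 FPKM in knockouts. Its log2 difference of -3.81 ± 0.13 (SE, adjusted p = 0.000102, limma) was the largest fall under the naming rule, 38.5-fold between the means. Lcp2, which encodes the adaptor protein SLP-76 of immune receptor signalling, went from 18.8 and 15.4 FPKM to 0.632, 0.849 and 1.62 FPKM, a difference of -3.18 ± 0.21 (adjusted p = 0.000601, limma). In both genes every knockout value lay far under both controls. Pdzph1, named for its PDZ and pleckstrin homology domains, went from 13.5 and 13.1 FPKM to between 0.576 and 0.768 FPKM (-3.10 ± 0.12). Akr1b8, an aldo-keto reductase, went from 13.8 and 16.4 FPKM to between 0.961 and 1.13 FPKM (-2.99 ± 0.12).

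Several fallen RNAs encode receptors and enzymes best known from other tissues. Lpl, the lipoprotein lipase that releases fatty acids from circulating triglycerides, had 8.65 and 8.45 FPKM in controls and 0.425, 0.596 and 0.558 FPKM in knockouts (-2.65 ± 0.12). Prlr, the prolactin receptor, had 9.46 and 7.78 FPKM in controls and 0.412, 0.151 and 1.24 FPKM in knockouts (-2.64 ± 0.27). Both genes kept their groups far apart, although the 3 knockout values of Prlr spread over a wide range. Mrc1, the mannose receptor of macrophages, had 5.54 and 6.2 FPKM in controls and 0.101 to 0.218 FPKM in knockouts (-2.59 ± 0.13). Cntn6, a contactin that neurons use for adhesion, fell from 5.49 and 7.14 FPKM to between 0.183 and 0.392 FPKM (-2.52 ± 0.16). Beside Mrc1 and Lcp2, which blood cells also use, the 12 blood markers summed to 0.359 to 0.584 FPKM in controls and 0.173 to 0.451 FPKM in knockouts, with 8 of them at 0 in all libraries. The other named falls were Dnajc5b, a J-domain protein gene (-2.71 ± 0.14), Nckap5 (-2.57 ± 0.14) and 2 gene models of the pseudogene Zfp813-ps (-2.89 ± 0.11 and -2.61 ± 0.18), whose exons share 32.2% and 21.1% of their 50-base words with other genes and whose reads may be split among copies. All 12 calls held with each library left out in turn wherever the gene was still tested. Fam217a, Pdzph1, Dnajc5b, Lpl, Mrc1, Nckap5 and Cntn6 did not pass the filter with only 1 control, so their calls were not tested there.

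Other falls were picked after their values were seen, from the 332 that reached at least 1 on the log2 scale. They say nothing of the rest. Cd36, a fatty acid transporter and scavenger receptor, had 16.9 and 13.9 FPKM in controls and 3.33 to 4.46 FPKM in knockouts, a difference of -1.80. Egfr, the receptor through which epidermal growth factors act, had 19.7 and 21.9 FPKM in controls and 5.07 to 8.82 FPKM in knockouts (-1.53). Aldh1a2, which makes retinoic acid, had 16.3 and 18.1 FPKM in controls and 3.65 to 4.31 FPKM in knockouts (-1.86). Cdh2, the adhesion molecule N-cadherin, had 6.49 and 6.5 FPKM in controls and 0.646 to 0.734 FPKM in knockouts (-2.15). Smad2, a transducer of TGF-beta signals, had 39.8 and 31.9 FPKM in controls and 15.5 to 18.7 FPKM in knockouts (-1.03). In each of these genes all knockout libraries lay under both controls, as in every called fall.

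One gene stood apart among the risen genes that met the naming rule. Cdc5l (chr17:45391884-45433737, minus strand), a core protein of the PRP19 spliceosome complex, had 1.61 and 2.71 FPKM in controls and 30.7, 25.1 and 27.7 FPKM in knockouts. The difference was 3.21 ± 0.16 (SE, adjusted p = 0.000271, limma), or 12.9-fold between the means, and the call held with each library left out. Other annotated genes shared 34.8% of its exonic words of 50 bases, so part of its reads could belong to copies. None of the other 15 tested members of the PRP19 list was called, and their differences ran from -0.29 to 0.34.

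The next largest rises under the naming rule were smaller by comparison. Of the 2 called genes that rose by at least 2 on the log2 scale, only Cdc5l met that rule. The predicted lincRNA Gm47561, which the rule also left out, rose by 1.77 ± 0.13 (adjusted p = 0.000859, limma). Ciart, a repressor of the circadian clock, had 1.96 and 2.12 FPKM in controls and 5.4, 5.47 and 8.49 FPKM in knockouts (1.27 ± 0.19). Cdk5r2, an activator of the kinase CDK5, had 2.06 and 1.92 FPKM in controls and 7.27, 6.01 and 4.27 FPKM in knockouts (1.17 ± 0.19). Grn, which encodes the lysosomal and secreted protein progranulin, had 11.1 and 8.7 FPKM in controls and 21.5 to 22.5 FPKM in knockouts (1.08 ± 0.11). The groups did not overlap in any of these genes, which the naming rule required. Pcbp3, a poly(C)-binding protein gene, Coro2b, a coronin gene, and the transporter gene Slc45a4 about doubled with differences of 0.96 ± 0.11, 0.89 ± 0.08 and 0.88 ± 0.08. Cep250, whose protein links centrosomes in somatic cells, had 7.32 and 7.97 FPKM in controls and 14.4 to 15.3 FPKM in knockouts (0.88 ± 0.08). The mitochondrial tRNAs mt-Td (0.93 ± 0.16) and mt-Ts2 (0.91 ± 0.10) also rose, but such short genes give unsure FPKM. The last of the 12 were Msrb3, a methionine sulfoxide reductase gene (0.89 ± 0.18), and Preb (0.83 ± 0.11). Of the 12 calls, 7 held in every fit that left out 1 library. Ciart, Cdk5r2 and Preb were lost without either control, Msrb3 without either control and without knockout 1, and mt-Td without control 1, with adjusted p of 0.0717 to 0.173 at the highest (limma).

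**Figure D2:**
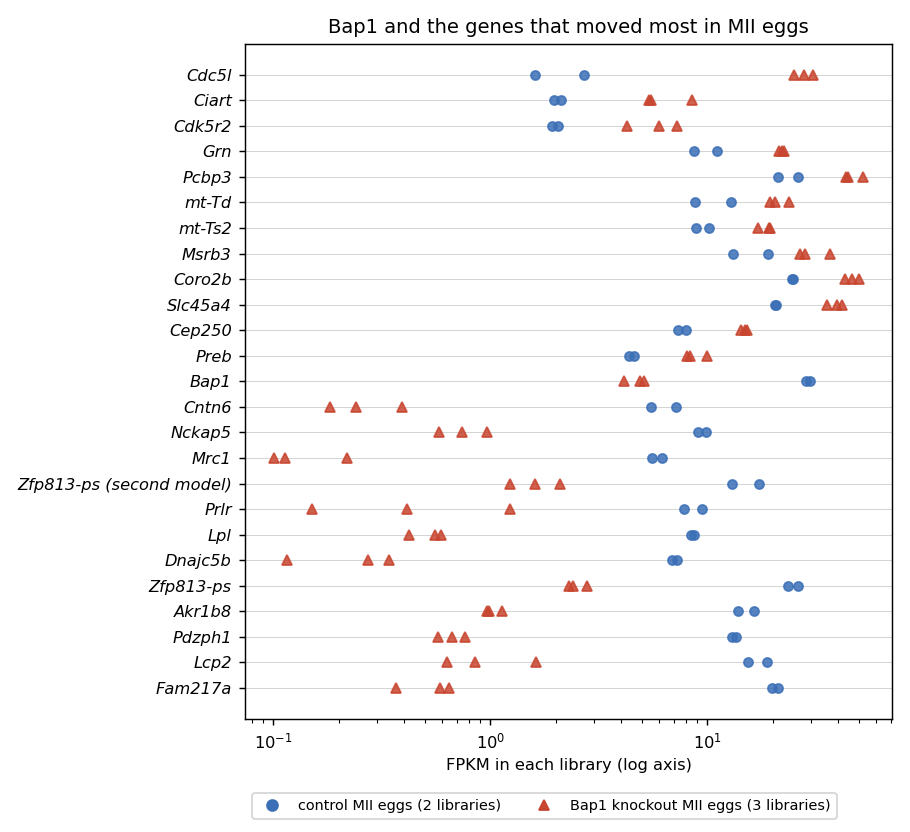
FPKM of Bap1 and of the 12 largest rises and 12 largest falls under the naming rule, ordered by log2 difference, on a log axis. Blue circles are the 2 control libraries and red triangles the 3 knockout libraries. In every row the colours do not overlap, as the naming rule required of the rises and falls. The fallen genes move from above 5 FPKM in controls to mostly under 1 FPKM.

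CG dinucleotides were fewer in the start regions of strongly fallen genes than in those of all genes. RefSeq entries covering 250 bases before to 50 bases after the start were counted for CG among protein-coding genes, where the sets compared had entries for at least 80% of genes. Of the 243 protein-coding genes that fell by at least 1 on the log2 scale, 197 had an entry, and the median was 10 CG per window. Of all 9559 protein-coding genes tested, 7732 had one, and their median was 22 CG. Fewer than 5 CG were found in 23.4% of the fallen and 7.17% of all. The sequence TATAAA, searched on both strands, occurred in 13.2% of the fallen and 6.83% of all. This set was chosen after coverage was known, and the fallen genes also had lower levels, with 192 of the 243 at a mean under 5 FPKM. The counts for all called genes in either direction are void, as entries were at hand for 78.8% of each, and so is a comparison of the fallen genes within level classes. Among genes averaging 5 FPKM or more, 264 of 329 risen genes had an entry, with a median of 22 CG and 9.85% under 5 CG, against a median of 23 CG and 5.48% for all tested genes of that level. No test was made, and a count of letters names no factor.

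**Figure D3:**
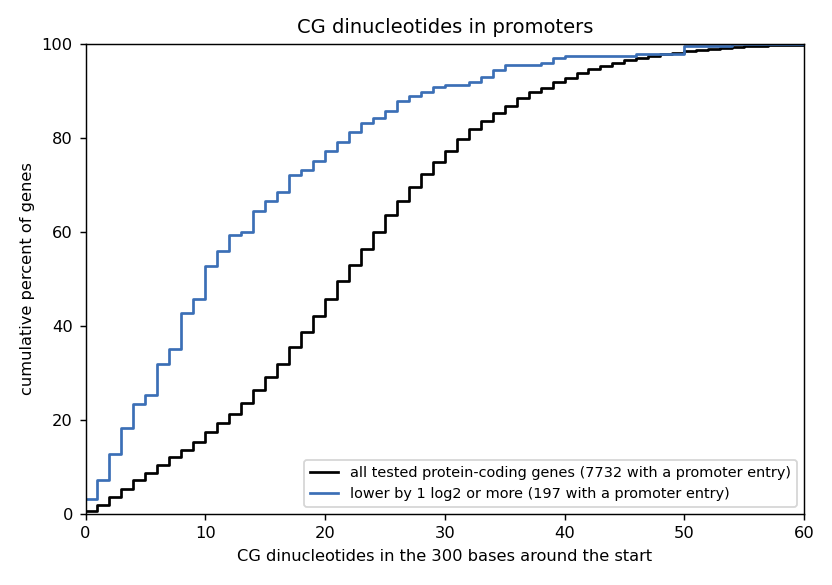
Cumulative percent of protein-coding genes (y axis) against the number of CG dinucleotides in the 300 bases around the RefSeq start (x axis). The blue line, for the 197 genes lower by at least 1 on the log2 scale, runs above the black line for all 7732 tested genes with an entry, with medians of 10 and 22 CG.

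Genes for the partners of BAP1, and for the enzymes that write and read Polycomb marks, are read against all genes tested. Of those, 4.17% were higher and 7.84% lower, and lists this small would hold few calls at such shares. Of 13 tested members of the BAP1 complex list, 3 were lower and 0 higher. The target Bap1 is one of these 3, and Asxl3 reached the level for a test through the controls alone, so no share is drawn from them. Asxl3, the ASXL paralog known from the nervous system, was at 1.57 FPKM in both controls and 0.375 to 0.487 FPKM in knockouts (-0.84 ± 0.13, adjusted p = 0.0104, limma), a call that held without each knockout and was not tested without a control. Kdm1b, a histone H3K4 demethylase needed for imprints in oocytes, had 56.2 and 68.1 FPKM in controls and 41.3 to 46.6 FPKM in knockouts (-0.50 ± 0.10, adjusted p = 0.0218), a call lost without control 2 or knockout 1, with adjusted p reaching 0.165 (limma). The abundant partner Asxl1 was at 58.9 and 57.8 FPKM in controls and 59.2 to 66.0 FPKM in knockouts, with a difference of 0.11 that did not pass the test. None of 19 tested PRC1 genes was called. The PRC1 gene with the lowest p was Kdm2b, at 147 and 149 FPKM in controls and 161 to 167 FPKM in knockouts (0.15 ± 0.05, adjusted p = 0.112, limma). None of 11 genes for other H2A deubiquitinases was called, nor any of 13 genes of the H3K9 methylation list. Of 13 tested genes of PRC2, the complex that methylates H3K27, Mtf2 rose (17.2 and 19.9 FPKM against 24.4 to 25.6 FPKM, 0.41 ± 0.08, adjusted p = 0.0226, limma), a call lost in 4 of 5 fits that left out 1 library. Among 15 genes of DNA methylation the reader Mbd1 fell, from 4.44 and 5.29 FPKM to between 1.94 and 2.56 FPKM (-0.89 ± 0.14, adjusted p = 0.0102, limma), and this call was lost without either control.

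Genes of the arrested egg held few calls. They are read against 4.17% higher and 7.84% lower among all genes tested. Of 40 tested genes of MII arrest and the anaphase-promoting complex, 2 rose (5%) and 1 fell (2.5%). These were Anapc5, a subunit of that complex (0.29 ± 0.06), Mapk3, the kinase ERK1 (0.24 ± 0.06), and Wee1, which restrains CDK1 (-0.63 ± 0.13). Of 30 checkpoint and cohesion genes 1 rose (3.33%) and 2 fell (6.67%). Bub1, a kinetochore kinase, had 23.0 and 26.3 FPKM in controls and 30.8 to 33.9 FPKM in knockouts. Aurkb, the kinase of the chromosomal passenger complex, had 7.58 and 6.83 FPKM in controls and 4.40 to 4.97 FPKM in knockouts. Sgo2a, the shugoshin that protects centromeric cohesin in meiosis, had 16.9 and 16.3 FPKM in controls and 11.5 to 12.5 FPKM in knockouts. The differences of these 3 genes were 0.39 ± 0.08, -0.55 ± 0.11 and -0.45 ± 0.08. Every call of these 2 lists was lost without knockout 2. In a fit of all 26 libraries Anapc5, Mapk3, Bub1 and Aurkb were not called, while Wee1 and Sgo2a were. Of 33 genes of the acentriolar spindle 5 rose (15.2%, against 4.17% of all genes) and 0 fell (against 7.84%). With equal sums over protein-coding genes, under quantile normalization and without knockout 3, 2 genes of this list were called lower. Beside Cep250 the risen genes were the clathrin gene Cltc (52.7 and 59.0 FPKM against 72.6 to 81.5 FPKM, 0.47 ± 0.08) and the kinesin genes Kif11, Kif2c and Kif20a, with differences of 0.34, 0.30 and 0.25. Apart from Cep250, each of these calls was lost when either control library was left out. The spindle list then held 1 call, against 2 without knockout 1 or knockout 2 and 3 without a trend in the variance.

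Stored RNAs that mark the oocyte showed both directions. Of 33 oocyte identity genes 5 fell (15.2%, against 7.84% of all genes) and 2 rose (6.06%, against 4.17%). Sohlh2, a transcription factor of early oocyte growth, fell furthest, from 4.03 and 4.26 FPKM to between 0.460 and 0.530 FPKM (-1.79 ± 0.12, adjusted p = 0.000648, limma). The oogenesin genes fell less, Oog2 from 104 and 121 FPKM to between 64.3 and 74.1 FPKM (-0.72 ± 0.09), with Oog1 at -0.57 and Oog3 at -0.53. Oog2 shares 33.4% of its exonic words with other genes, so reads of this family may be split. The homeobox gene Obox2 changed by -0.31. Zar1l, which binds maternal mRNAs, rose from 166 and 162 FPKM to between 201 and 218 FPKM (0.35 ± 0.06), and Omt2a by 0.23. Of these 7 calls only that of Sohlh2 was never lost, and Sohlh2 did not pass the filter with 1 control. None of 16 tested genes of the subcortical maternal complex was called. Of 27 tested genes of the egg surface and of activation, the ion channel gene Trpm7 rose (0.44 ± 0.09) and the vesicle gene Rab3a fell (-0.29 ± 0.07), both lost without a control.

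RNAs that the egg clears were counted as a group. From control libraries of the neighbouring stages, 891 tested genes were taken that fell by at least 1 on the log2 scale between fully grown oocytes and late 1-cell embryos. Their median level was 8.99 and 9.73 FPKM in control MII eggs and 8.55 to 9.98 FPKM in knockout MII eggs, so the groups overlapped. Of these genes 23 were higher (2.58%) and 29 lower (3.25%) in knockout eggs, against 4.17% and 7.84% of all genes. The share higher was above that of all genes without control 1 (0.454% against 0.431%), without control 2 (0.456% against 0.304%) and with no filter on low values (0.858% against 0.659%). Of 8024 genes whose level stayed within 0.5 between those stages, 342 were higher (4.26%) and 682 lower (8.50%). Among genes that act on stored mRNA, 2 of 33 mRNA decay genes rose, Zfp36l2, which destabilises AU-rich mRNAs (5.33 and 4.48 FPKM against 7.49 to 10.7 FPKM, 0.83 ± 0.16), and Edc4 (0.29 ± 0.06). Of 40 translation control genes 3 rose and 3 fell. The risen were Cpeb2, a cytoplasmic polyadenylation factor (0.84 ± 0.13), Pabpn1l, an oocyte poly(A)-binding protein gene (125 and 111 FPKM against 174 to 198 FPKM, 0.63 ± 0.08), and Eif4g1 (0.44 ± 0.07). The fallen were Pabpc1 (-0.49 ± 0.10), Pum2 (-0.30 ± 0.06) and Cpeb3 (-0.29). Each of these 8 calls was lost without at least 1 control.

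Zinc finger genes with a number in their symbol, which encode mainly DNA-binding proteins, held many of the falls. Of 202 tested, 40 were lower (19.8%, against 7.84% of all genes) and 5 higher (2.48%), and the median difference of the list was -0.13 against 0.00 for all genes. Zfp820 went from 3.96 and 4.59 FPKM to between 0.171 and 0.798 FPKM (-1.88 ± 0.20). Zfp978 went from 18.96 and 22.5 FPKM to between 5.32 and 5.89 FPKM (-1.71 ± 0.10), though 77.4% of its exonic words occur in other genes. In both genes the groups lay far apart. The largest of the 5 called rises were those of Zfp423 (0.44 ± 0.09) and Zfp609 (0.41 ± 0.09), of which the first lost its call in 4 and the second in all 5 fits that left out 1 library. Above an average of 5 FPKM the share was 11 of 111 (9.91%, against 4.08% of all). Of the 40 falls, 15 held with each knockout left out in turn. Some genes, such as Zfp820, did not pass the filter with only 1 control, so their calls were not tested there. Without control 1 the list had 5 falls (2.69%, against 1.21% of all), and without control 2 it had 6 (3.23%, against 1.14%).

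X-linked genes held 61 of the falls, a set that was looked at after the chromosome counts were seen. Of 370 tested genes on the X chromosome 61 were lower (16.5%) and 15 higher (4.05%). On the other chromosomes 829 of 10987 were lower (7.55%) and 459 higher (4.18%). X-linked genes also had lower levels, with 47.3% of them under 5 FPKM in controls against 38.5% elsewhere, and with a mean of at least 5 FPKM the share was 20 of 187 (10.7%, against 4.08% of all). Hmgn5, a nucleosome-binding protein gene, had 8.23 and 7.75 FPKM in controls and a knockout mean of 1.04 ± 0.405 FPKM (SD, n = 3), a difference of -2.16 ± 0.18. Ocrl, the phosphatase gene of Lowe syndrome, went from 4.73 and 7.06 FPKM to a mean of 0.714 ± 0.213 FPKM (-1.99 ± 0.19). Brwd3, a chromatin-binding bromodomain protein gene, went from 12.6 and 11.8 FPKM to a mean of 3.48 ± 0.66 FPKM (-1.57 ± 0.14). Smaller falls, also picked after their values were seen, were those of the ADP/ATP carrier gene Slc25a5 (-0.72 ± 0.07) and the spermine synthase gene Sms (-0.65 ± 0.07). The glycolytic enzyme gene Pgk1 (-0.58 ± 0.12) lost its call in 4 of 5 fits that left out 1 library, with an adjusted p of up to 0.212 (limma). Some of these genes, such as Ocrl, did not pass the filter with only 1 control, so their calls were not tested there. Of the 61 falls 27 reached 1 on the log2 scale, and 36 held with each knockout left out in turn. Without control 1 the count was 14 (4.07%, against 1.21% of all genes), and without control 2 it was 11 (3.18%, against 1.14%). Kdm6a, the X-linked H3K27 demethylase, had 58.3 and 54.9 FPKM in controls and 47.3 to 48.4 FPKM in knockouts (-0.23 ± 0.06, adjusted p = 0.0471, limma), and this call was lost in each fit that left out 1 library.

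Genes of developmental regulator families, taken by symbol and not by any Polycomb mark, were called in both directions. Of 223 developmental regulators, chosen by family name, 37 reached the level needed for the test. Of these 4 rose (10.8%, against 4.17% of all genes) and 5 fell (13.5%, against 7.84%), which says nothing of the members too low to test. With a mean of at least 5 FPKM, 1 of 22 was lower (4.55%, against 4.08% of all) and 2 were higher (9.09%, against 4.01%). Hoxa7, a homeobox gene of trunk patterning, had 14.5 and 14.2 FPKM in controls and 5.13 to 6.18 FPKM in knockouts (-1.20 ± 0.10, adjusted p = 0.00116, limma). Gata3, a transcription factor of trophectoderm and T cells, had 2.68 and 2.19 FPKM in controls and 0.0737 to 0.228 FPKM in knockouts (-1.57 ± 0.15, adjusted p = 0.00176, limma). The growth factor gene Fgf10 fell by 1.02, Foxj2 by 0.70 and Pax2 by 0.68. The risen were Nkx6-2 (0.81 ± 0.18), Foxo6 (0.67 ± 0.14), Sox8 (0.41) and Foxn3 (0.38). The falls of Hoxa7, Gata3 and Fgf10 held in every fit without 1 library that tested them, which for Gata3 and Fgf10 were those with both controls, while each of the 4 rises was lost without either control.

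Few imprinted or 2-cell genes reached the level needed for a test. Of 38 genes with noncanonical imprinting, which rests on maternal H3K27me3, 2 reached the level for a test, and Bbx did so through the controls alone, so no share is drawn from them. Flt1, a receptor of vascular growth factors, had 3.21 and 3.46 FPKM in controls and 0.888 to 1.21 FPKM in knockouts (-1.09 ± 0.13). Bbx, an HMG-box gene, had 2.21 and 1.6 FPKM in controls and 0.550 to 0.650 FPKM in knockouts (-0.85 ± 0.15). The call of Flt1 was lost without either control and that of Bbx without knockout 2, and Bbx was not tested without a control. Of 17 tested canonical imprinted genes 1 was called, Gpr1 (-0.35 ± 0.06), lost without either control. Of 6 tested genes of the 2-cell list, Obox7 (chr7:14659496-14665996, plus strand), a homeobox gene of the Obox family, had 50.3 and 48.9 FPKM in controls and 16.4, 12.7 and 8.96 FPKM in knockouts. Its difference of -1.92 ± 0.21 (adjusted p = 0.00307, limma) held with each library left out, and 21.1% of its exonic words occur in other genes.

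Signalling and clock genes were called in both directions. Of 17 tested clock genes 3 rose (17.6%, against 4.17% of all genes) and 2 fell (11.8%, against 7.84%). Beside Ciart, the repressor gene Bhlhe40 rose (13.3 and 12.8 FPKM against 17.3 to 19.3 FPKM, 0.43 ± 0.08) and Per3 rose by 0.29. Per1 went from 4.77 and 4.58 FPKM to between 1.89 and 2.59 FPKM (-0.86 ± 0.14), and Rora, a nuclear receptor gene, changed by -0.74 ± 0.13. Of 23 receptor signalling genes Socs3 (0.75 ± 0.18) and Plcg2 (0.46 ± 0.11) rose, while Lcp2 and Prlr fell. Of 17 genes of p53 and apoptosis, the death-promoting Bcl2l11 fell (-0.73 ± 0.10), and none of 28 homologous recombination genes was called. Of the calls in this paragraph only those of Lcp2 and Prlr held without either control.

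Housekeeping groups, read against 4.17% higher and 7.84% lower among all genes tested, held few calls. The clearest was that of the mitochondrial ribosomal RNA mt-Rnr2. None of 42 tested proteasome genes and 1 of 50 ribosomal protein genes was called, the retrocopy Rpl10l (-0.90 ± 0.18), with list medians of 0.05 and -0.00. Of 37 histone genes 1 rose and 3 fell, all H4 genes whose nearly identical copies make the reads uncertain. Of 15 genes of the mitochondrial genome outside the tRNAs, 2 were called lower (13.3%) and 13 had differences under 0, with a median of -0.46. The ribosomal RNA mt-Rnr2 had 5770 and 5744 FPKM in controls and 3208, 2901 and 3175 FPKM in knockouts (-0.90 ± 0.10, adjusted p = 0.00287, limma). The other one, mt-Rnr1, had 6949 and 6110 FPKM in controls and 4303 to 4521 FPKM in knockouts (-0.55 ± 0.11). The call of mt-Rnr2 held in all 5 fits that left out 1 library. That of mt-Rnr1 was lost without either control, knockout 1 or knockout 2. Both calls ended under quantile normalization, which gives a gene of the same rank in every library the same value. As these 2 RNAs kept their rank, that setting could not show a change in them. Mitochondrial RNA made up 6.25% and 5.66% of the FPKM sum in controls and 4.23% to 4.57% in knockouts. With the tRNAs, 37 genes of this genome were tested, of which 4 were higher (10.8%) and 2 lower (5.41%). As mt-Td and mt-Ts2 were among the risen, the RNAs of this genome did not all move together.

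**Figure D4:**
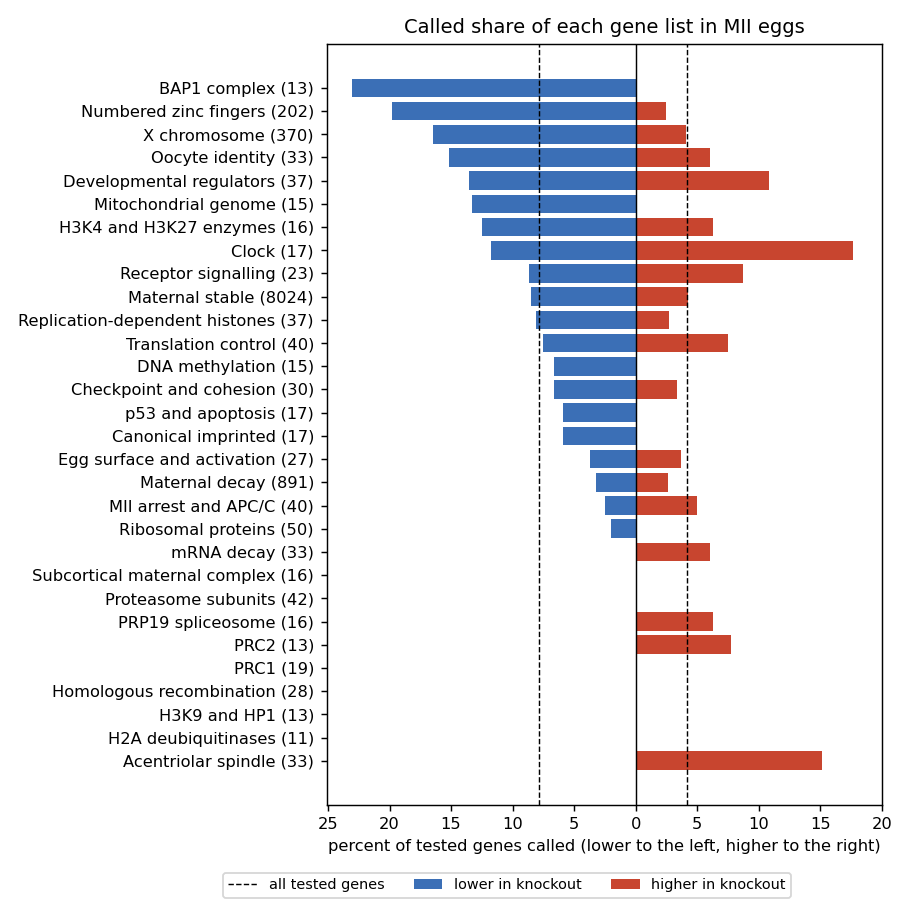
Percent of the tested genes of each list called lower (blue bars, to the left) or higher (red bars, to the right) in knockout MII eggs, for lists with at least 10 tested genes, whose number is in brackets. Dashed lines mark the 7.84% lower and 4.17% higher among all tested genes, and numbered zinc fingers (19.8% lower) and the X chromosome (16.5% lower) pass the lower line with the most genes of any list except the stable maternal RNAs.

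Most genes that fell in MII eggs were also called lower in knockout oocytes before maturation. Fully grown oocytes, which share no library with the eggs, were fitted alone, and 7.00% of genes were lower and 1.34% higher there. Of 839 fallen MII genes tested at both stages, 560 were also called lower in oocytes, which is 66.7% of the MII calls and 73.0% of the 767 oocyte calls. None was called in the opposite direction, and 96.2% had the same sign. Of 466 risen MII genes 77 were also called higher in oocytes, 16.5% of the MII calls and 51.7% of the 149 oocyte calls, with 93.1% of the same sign. In late 1-cell embryos, fitted alone with 8.71% of genes lower and 6.22% higher, 577 of 842 fallen MII genes were again lower (68.5% of the MII calls and 63.7% of the embryo calls), and 1 was higher. Of 465 risen genes 157 were again higher (33.8% and 23.1%).

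The genes named above followed the same pattern. All 12 that fell most were called lower at both neighbouring stages, with differences from -3.62 to -2.08 in oocytes and from -3.39 to -2.33 in late 1-cell embryos. Fam217a, for example, was at -3.62 ± 0.14 in oocytes, -3.81 ± 0.13 in eggs and -3.39 ± 0.21 in embryos. Of the 12 that rose most, 7 were called higher in oocytes and 11 in embryos. Cdc5l was at 3.24 ± 0.22 in oocytes and 4.08 ± 0.15 in embryos. Coro2b, at 0.89 in eggs, was at 0.29 ± 0.12 in oocytes (adjusted p = 0.198) and 0.47 ± 0.10 in embryos (adjusted p = 0.0245, limma). Msrb3 and Preb were at 0.15 ± 0.25 and 0.05 ± 0.38 in oocytes, with no call there.

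**Figure D5:**
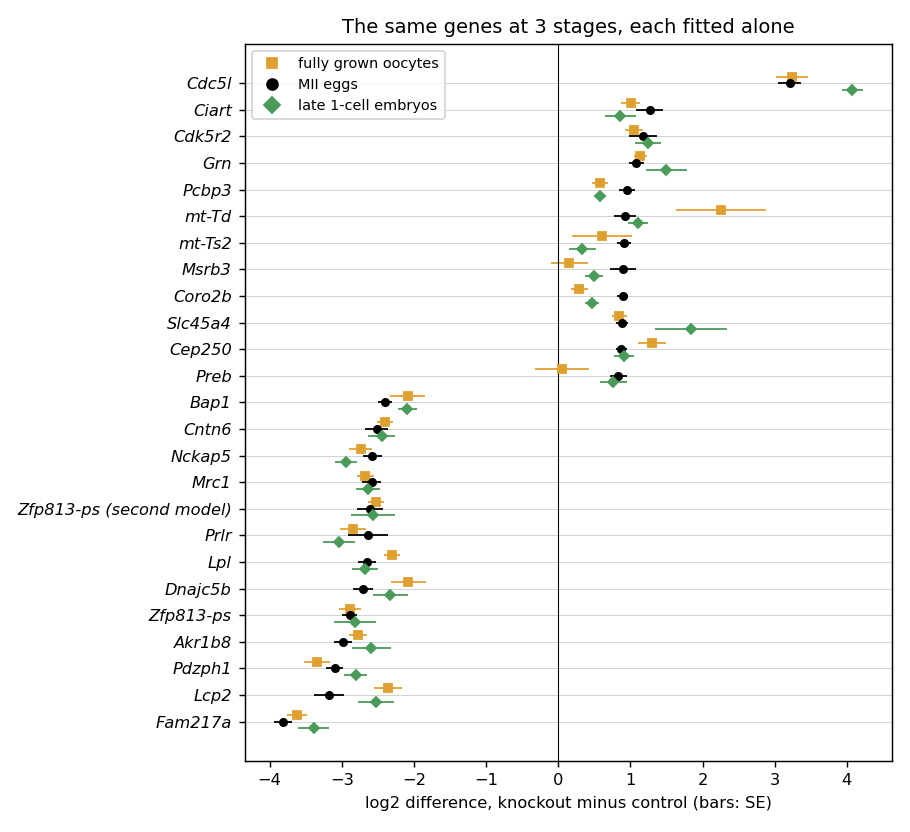
Log2 difference, knockout minus control, with its SE (bars), of Bap1 and the 24 genes that moved most under the naming rule. Fully grown oocytes are orange squares, MII eggs black circles and late 1-cell embryos green diamonds, each stage fitted alone. The fallen genes lie between -3.81 and -2.08 at all stages, and the risen genes other than Cdc5l spread more between stages.

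The change of the knockout effect from stage to stage was tested directly. Between oocytes and eggs 0 of 12016 genes had a different effect at an adjusted p under 0.05 (limma), while 1080 had an unadjusted p under 0.05 (8.99%). The lowest p among named genes belonged to Ldb1, Nudcd3 and Sap18. Nudcd3 had 14.5 and 13.5 FPKM in control eggs and 20.4 to 22.3 FPKM in knockout eggs (0.56 ± 0.08), against 0.03 ± 0.08 in oocytes. Between eggs and late 1-cell embryos 6 of 11817 genes (0.0508%) differed in their effect, 5 with a higher effect in embryos (0.0423%) and 1 with a lower one (0.00846%), and 1483 had an unadjusted p under 0.05 (12.5%). Leaving out 1 library moved this count to between 0 and 41. Sap18, a subunit of Sin3 corepressor complexes, had 91.8 and 79.9 FPKM in control eggs and 57.7 to 73.6 FPKM in knockout eggs (-0.37 ± 0.11, adjusted p = 0.0799, limma). In embryos it had 39.4 FPKM in both controls and 70.7 to 80.4 FPKM in maternal knockouts (0.89 ± 0.08), and the difference between the effects was 1.27 ± 0.15 (adjusted p = 0.0261, limma). The other genes of this comparison are H4c6, Atp5k, Hspa8, Stbd1 and Gm7240.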

How the data were processed

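RNA of MII eggs was measured in 2 control and 3 Bap1 knockout libraries. The authors deposited FPKM per gene, made per the submitters' processing notes with Trim Galore 0.6.6, STAR 2.7.9 and StringTie 2.1.7 on mm10. Which annotation release was used is not given in the sources used here. FPKM keeps no read counts, so depth is unknown and precision is limited by the number of libraries. The sample titles gave each group and replicate number.

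Values were analysed as log2(FPKM + 1), which understates changes of low genes. A gene was tested where 2 or more of the fitted libraries reached 1 FPKM. The 5 MII libraries were fitted alone with limma 3.58.1 in R 4.3.3 (eBayes with trend), with Benjamini-Hochberg adjustment over all genes tested and a threshold of 0.05. Effects of 2 stages were compared by an interaction contrast in a joint fit of their libraries. In simulated data of 10979 genes in 5 libraries, 80% of genes changed by 1 on the log2 scale and 100% of those changed by 2 were recovered, with 11 false calls. The changed genes were drawn from those with a mean log2(FPKM + 1) over 2, so recovery of lower genes was not measured. The simulated noise was independent between genes and libraries. Of 55401 genes, 55141 were found in GENCODE M21 (GRCm38, the assembly of mm10), the source of positions. Promoters came from RefSeq (GRCm38.p6), with an entry for 21000 genes. Use of the strand in counting is not given in the sources used here, which leaves overlapping and antisense genes uncertain. Tables and plots used Python 3.11.15, pandas 2.3.3 and matplotlib 3.10.9.

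The genes named include Bap1 and the 12 largest rises and 12 largest falls among called genes. Those rises and falls had at least 5 FPKM in the higher group and no predicted or clone name. Their knockout libraries also had to lie all on one side of the controls. Also named are the 2 risen and 2 fallen most of each list (the lowest p where none was called), and 3 genes per direction of each interaction. Other genes of the lists, of the X chromosome and the 5 genes said to be picked later were added after their values were seen. The members and the gene lists were chosen with earlier results of these data known. Of the list symbols, Dux, Obox4 and Fancj were not matched and are not used here. The alternatives were a pseudocount of 0.1, a mean of at least 5 FPKM, no filter, an added limit of 1 on the log2 scale, 4 other scalings, eBayes without trend, a fit of all 26 total RNA libraries, the replicate number as a block, and leaving out each library. Counts for the X chromosome and for single lists under these alternatives were added after seeing the data.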

Additional observations from a re-analysis of the deposited data

Results flagged for a closer look

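For 6 genes the effect of the knockout differed between late 1-cell embryos and MII eggs by a test of the difference itself (limma interaction contrast, adjusted p under 0.05). The difference of effects, embryos minus eggs on the log2 scale, was 1.57 ± 0.17 (SE, adjusted p = 0.0261) for H4c6, a histone H4 gene at -0.41 in eggs (adjusted p = 0.0424) and 1.15 in embryos. Its call in eggs was lost in all 5 fits that left out 1 library, with an adjusted p of up to 0.221, and in the fit of all 26 libraries (adjusted p = 0.513). It was 1.27 ± 0.15 (adjusted p = 0.0261) for Sap18. For Atp5k, a subunit gene of ATP synthase, it was 1.01 ± 0.14 (adjusted p = 0.0499), with 42.1 and 47.4 FPKM in control eggs, 34.1 to 39.7 FPKM in knockout eggs, 12.05 and 13.5 FPKM in control embryos and 19.6 to 22.6 FPKM in maternal knockout embryos. For the chaperone gene Hspa8 it was 0.82 ± 0.10 (adjusted p = 0.0429), and for Stbd1, a glycogen-binding protein gene, 0.67 ± 0.09 (adjusted p = 0.0499). The pseudogene Gm7240 went the other way, at -0.93 ± 0.13 (adjusted p = 0.0499), with a difference of 0.14 in eggs that was not called and -0.79 in embryos. In the 5 genes with a higher effect, control levels were lower in embryos than in eggs. Fits that left out 1 library gave 0 to 41 such genes, so each of the 6 was lost in at least 1 of them.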

How the results depend on the processing

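The fall of Bap1 kept its direction and its call under every alternative. The MII counts (474 higher, 890 lower, 1364 in all) moved by over 1.5 times under 5 settings. A limit of 1 on the log2 scale left 351 (19 higher, 332 lower), and a mean of at least 5 FPKM 555 (275 and 280). Centring on library medians gave 716 higher genes, a fit of all 26 libraries 895 calls with 194 higher, and no filter 882 with 168 higher. Leaving out 1 library gave 157 to 1363 calls, 33 to 436 of them higher and 124 to 927 lower. Fits without a control did not test 273 of the fallen genes and 0 of the risen, as they left 1 control to pass the filter. With each knockout left out in turn, 124 higher and 493 lower genes kept their call. Under all 4 other scalings 367 higher and 674 lower genes kept theirs. Among named genes, Mapk3, Kif20a, Omt2a and Per3 lost their call with equal sums over protein-coding genes and under quantile normalization. Edc4, Pabpc1 and both mitochondrial rRNAs lost it under quantile normalization, which could not show a change in the rRNAs. Plcg2 lost it with equal protein-coding sums, Rab3a, Cpeb3 and Kdm6a under TPM scaling and median centring, and H4c6 under quantile normalization and median centring. Of the effects that differ between eggs and embryos (6 genes), a pseudocount of 0.1 gave 14, a mean of at least 5 FPKM 11, a fit of all 26 libraries 0, the replicate block 2, and leaving out 1 library 0 to 41. Between oocytes and eggs (0 genes), a pseudocount of 0.1 gave 1 and leaving out 1 library 0 to 3. In each case the cause was not tested beyond the smaller number of genes or libraries where the setting removes them.

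The replicate numbers are shared between groups, but the labels do not say that they pair libraries, and deviations of same-numbered MII libraries correlated at -0.04 and 0.17. With the replicate block 1254 genes were called, 386 higher and 868 lower. Under it the spindle list had 3 higher and 2 lower genes and the developmental regulators 1 higher gene of 37 (against 3.40% of all genes), and H4c6, Zfp423 and Zfp609 lost their calls (adjusted p of 0.0814, 0.0613 and 0.0733, limma). Depth is unknown, so what counting error adds to low FPKM cannot be given.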
